A study of Mus musculus with 6 samples.

Results

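The nuclear genes for subunits of the mitochondrial respiratory chain and ATP synthase were compared between wildtype and Ret null mouse gut of embryonic stage E10.5. Members were taken by symbol from the deposited gene table: symbols that start with Nduf (without the assembly factors named Ndufaf), Uqcr, Atp5, Cox4, Cox5, Cox6, Cox7 or Cox8, with Sdha, Sdhb, Sdhc, Sdhd and Cyc1. Of 86 lines with these symbols, 83 had been tested by the authors, among 13430 tested lines in all: 38 of complex I, 4 of complex II, 9 of complex III, 15 of complex IV and 17 of complex V. The other 3 were at or near 0 and had no test. They are Cox8c (0 FPKM in both genotypes), Cox7b2 (0.158 FPKM in wildtype against 0 in Ret null) and Cox8b (0.868 FPKM in wildtype against 0 in Ret null). A few symbols carry the prefix without being what it says. Ndufa4 and its paralog Ndufa4l2 are named for complex I, but their proteins are found with complex IV. Cox7a2l encodes a factor that joins complexes III and IV into supercomplexes. Atp5s and Atp5sl share only the prefix and are not subunits of the enzyme.

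Both groups were of strain C57BL/6J, with 3 wildtype and 3 Ret null samples. The latter lack both working copies of Ret, which encodes the GDNF receptor kinase of the enteric neural crest. The labels do not say how the allele was made, how many embryos a sample held or whether samples came from separate litters, so the authors' p-values measure only the spread between these samples, which may be technical. Polyadenylated RNA was read as 75 bp pairs, and the table holds 1 value per genotype in FPKM, fragments per kilobase of transcript scaled to library depth, which is a level per length. No value per sample was available, so no spread is given beside a level and overlap between samples could not be judged. In its place the standard error implied by the authors' test (log2 fold change divided by their statistic) is printed after each log2 fold change, which is always Ret null over wildtype. A gene was called where the authors' q, their p-value adjusted over all tested lines, was under 0.05.

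The targeted gene went with the labels: Ret was at 8.80 FPKM in wildtype against 0.0354 FPKM in Ret null, 249-fold lower, with q = 0.0042 in the authors' deposited table. The sexes of the libraries went partly against the series text, which describes male embryos. Xist, the noncoding RNA of X inactivation, was at 0.136 FPKM in wildtype against 31.8 FPKM in Ret null. The Y-linked Ddx3y, Eif2s3y, Kdm5d and Uty were present in both genotypes and lower in Ret null, Ddx3y at 18.3 against 10.7 FPKM, each with q = 0.000775 in the authors' deposited table. Markers of neighbouring tissues differed widely. All 9 tested genes of somite and skeletal muscle and 5 of 7 heart genes were called lower in Ret null. All 11 liver and all 11 gut epithelium genes were called higher. Of all tested lines 8.88% were called lower and 5.69% higher. The marker lists were chosen with earlier results of these data known, so their directions are not an independent result. In whole tissue, fewer cells of a type and less RNA per cell cannot be told apart.

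The respiratory chain sits in the inner mitochondrial membrane. Complex I (NADH dehydrogenase) and complex II (succinate dehydrogenase) pass electrons to ubiquinone, complex III hands them to cytochrome c, and complex IV (cytochrome c oxidase) gives them to oxygen, while complexes I, III and IV pump protons that drive ATP synthase, complex V. All but complex II also hold subunits encoded by mitochondrial DNA. The authors' deposited table holds no line of the mitochondrial chromosome, so these subunits could not be analysed here. Transcription of many of the nuclear genes is known to involve NRF1, the ETS factor GABP (NRF2) and YY1, so their promoters were searched for sequence matches to these factors.

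For that reason promoters are shown before the values. Each stretch of 180 bases below runs from 150 bases before the annotated start to 30 bases from it on, 5′ to 3′ on the gene's own strand, from RefSeq on GRCm38.p6 (the build mm10). Capitals mark exact matches on either strand to 1 of 3 motifs: GCGCATGC or its complement GCATGCGC for NRF1, CCGGAAGT or ACTTCCGG for ETS factors, and AAGATGGC or GCCATCTT for YY1. The first 6 stand for complexes I to V and hold a match, and the last, of the muscle isoform gene Cox7a1, holds none.
Ndufa6, chr15:82354262-82354441, minus strand: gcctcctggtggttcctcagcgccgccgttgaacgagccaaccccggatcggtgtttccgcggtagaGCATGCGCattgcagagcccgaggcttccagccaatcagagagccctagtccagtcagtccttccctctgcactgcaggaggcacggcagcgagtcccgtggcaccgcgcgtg
Ndufa3, chr7:3617223-3617402, plus strand: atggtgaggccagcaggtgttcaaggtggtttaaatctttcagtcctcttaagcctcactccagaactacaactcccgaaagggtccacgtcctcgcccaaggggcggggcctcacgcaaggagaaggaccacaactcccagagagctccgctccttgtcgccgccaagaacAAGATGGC
Sdhb, chr4:140961121-140961300, plus strand: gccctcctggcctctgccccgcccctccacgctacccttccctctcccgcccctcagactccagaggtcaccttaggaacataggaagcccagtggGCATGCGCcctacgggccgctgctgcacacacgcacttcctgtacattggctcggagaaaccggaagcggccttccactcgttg
Uqcr11, chr10:80406792-80406971, minus strand: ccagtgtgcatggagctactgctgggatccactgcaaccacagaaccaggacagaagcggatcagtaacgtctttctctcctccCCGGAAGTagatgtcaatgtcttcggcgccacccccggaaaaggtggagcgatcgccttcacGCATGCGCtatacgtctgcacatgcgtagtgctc
Cox8a, chr19:7217587-7217766, minus strand: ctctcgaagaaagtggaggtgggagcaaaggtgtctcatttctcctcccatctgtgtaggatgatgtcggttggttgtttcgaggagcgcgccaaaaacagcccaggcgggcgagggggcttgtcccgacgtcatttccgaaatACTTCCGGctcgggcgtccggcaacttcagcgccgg
Atp5g2, chr15:102671018-102671197, minus strand: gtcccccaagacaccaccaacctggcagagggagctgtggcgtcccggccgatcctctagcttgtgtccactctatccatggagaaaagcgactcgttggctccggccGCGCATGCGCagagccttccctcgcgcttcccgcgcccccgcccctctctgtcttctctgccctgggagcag
Cox7a1, chr7:30184021-30184200, plus strand: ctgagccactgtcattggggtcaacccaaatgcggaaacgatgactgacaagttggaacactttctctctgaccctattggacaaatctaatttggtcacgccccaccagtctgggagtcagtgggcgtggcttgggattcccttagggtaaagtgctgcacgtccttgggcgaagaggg
Ndufa6 and Sdhb hold the NRF1 letters, Uqcr11 holds the ETS letters and further down the NRF1 letters, and Cox8a holds the ETS letters beside its start. In Atp5g2 the palindrome GCGCATGCGC contains both NRF1 strands, which overlap. In Ndufa3 the YY1 letters lie downstream of the start.

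Promoter windows of 300 bases (250 before the start, 50 after) were present for 68 of the 83 members, 74 windows in all, among 32851 windows in the reference table. The NRF1 letters were in 10 of the 74 member windows, 13.5%, against 2.71% of all windows. Among the 1484 windows of genes at 50 FPKM or more, by the mean of both genotypes, the share was 6.27%. The YY1 letters were in 12 member windows, 16.2%, against 2.75% and 6.00%. The ETS letters were in 5, or 6.76%, above the 3.89% of all windows and below the 9.77% of windows of genes at 50 FPKM or more. At least 1 match stood in 26 member windows, 35.1%, against 8.83% of all and 20.4% of those of genes at 50 FPKM or more. By gene with a window, NRF1 matches lay in all 5 complexes (3 of 33 in complex I, 1 of 3 in complex II, 2 of 5 in complex III, 1 of 11 in complex IV and 3 of 16 in complex V). YY1 matches lay in 7 of 33 complex I and 4 of 16 complex V genes and in none of the few windows of the other complexes. Differences between complexes were not tested. These are letter matches and not measured binding, and the windows were not adjusted for base composition. The median difference between genotypes was 0.06 over 25 genes with a match and 0.07 over 43 without, on the log2(FPKM + 1) scale. By motif the medians were 0.11 for the 10 genes with NRF1 letters (9 higher in Ret null), 0.06 for the 5 with ETS letters and 0.05 for the 11 with YY1 letters, and no difference between these sets was tested.

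None of the 83 members was called in either direction. The authors' deposited table called 14.6% of all tested lines, 5.69% as higher and 8.88% as lower in Ret null. Of lines at 50 FPKM or more, by the mean of both genotypes, it called 7.17% in either direction. The count was also 0 at q under 0.1, which 17.5% of all lines passed, and 0 when the authors' statistic was read as a normal deviate and adjusted over all lines, which called 4.5% of them. At an unadjusted p under 0.05, 4 members were higher in Ret null and 0 were lower. The background at that threshold was 9.91% of all lines and 10.8% of lines at 50 FPKM or more for higher values, and 13.5% and 3.68% for lower values. The smallest q of any member in the authors' deposited table was 0.117, that of Ndufa12.

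**Figure D1:**
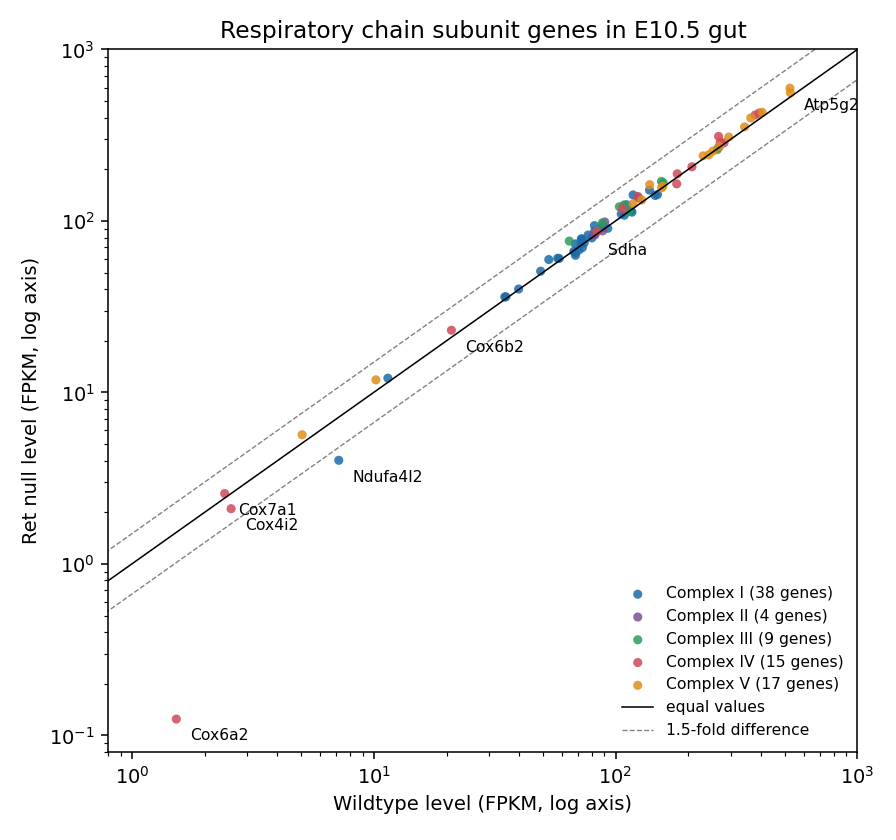
Level of each of the 83 tested members in wildtype (x axis) and Ret null gut (y axis), in FPKM on log axes, coloured by complex, with 1 value per genotype and no error bars. All members above 20 FPKM lie close to the line of equal values and within the dashed 1.5-fold lines, and Cox6a2 and Ndufa4l2 lie below them.

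The levels ran from 1.53 to 529 FPKM in wildtype and from 0.124 to 595 FPKM in Ret null, and 80 of 83 members stayed within 1.2-fold between the genotypes. The 3 outside, all lower in Ret null, were the minor isoform genes Cox6a2, Ndufa4l2 and Cox4i2, and Ndufa12 stood just inside at 1.199-fold. Summed over members, the level was 11357 FPKM in wildtype against 11955 FPKM in Ret null, a ratio of 1.05, or 2.24% and 2.27% of the FPKM of the table. These genes thus took nearly the same share of the table in both genotypes. In 64 members the Ret null value was the higher one and in 19 the lower. The median difference on the log2(FPKM + 1) scale was 0.06, against 0.01 over all tested lines, of which 52.0% were higher in Ret null.

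Other genes of similar level leaned the same way. Among the 71 members at 50 FPKM or more 77.5% were higher in Ret null, and among the 1450 other lines at that level 73.6% were, each with a median of 0.06, and the difference between the shares was not tested. All 83 members, of which 12 were under 50 FPKM, were also set against the median of the other lines. Of these members 40 lay above it and 43 below, and the members' own median relative to it was -0.0039. The quartiles were near each other, at 0.01 and 0.13 for the members at 50 FPKM or more against -0.0041 and 0.14 for the other lines. The standard deviation of 0.086 against 0.31 includes extreme other lines, up to a difference of 7.23, and over all 83 members it was 0.18. For 73 of the 83 members the 95% interval, 1.96 implied standard errors on each side, stayed within 1.5-fold in both directions, so larger differences lie outside the intervals of those 73. Smaller ones were near the reach of the authors' test, whose smallest called difference at 50 FPKM or more was 0.28, against 0.26 for the largest among members at that level.

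**Figure D2:**
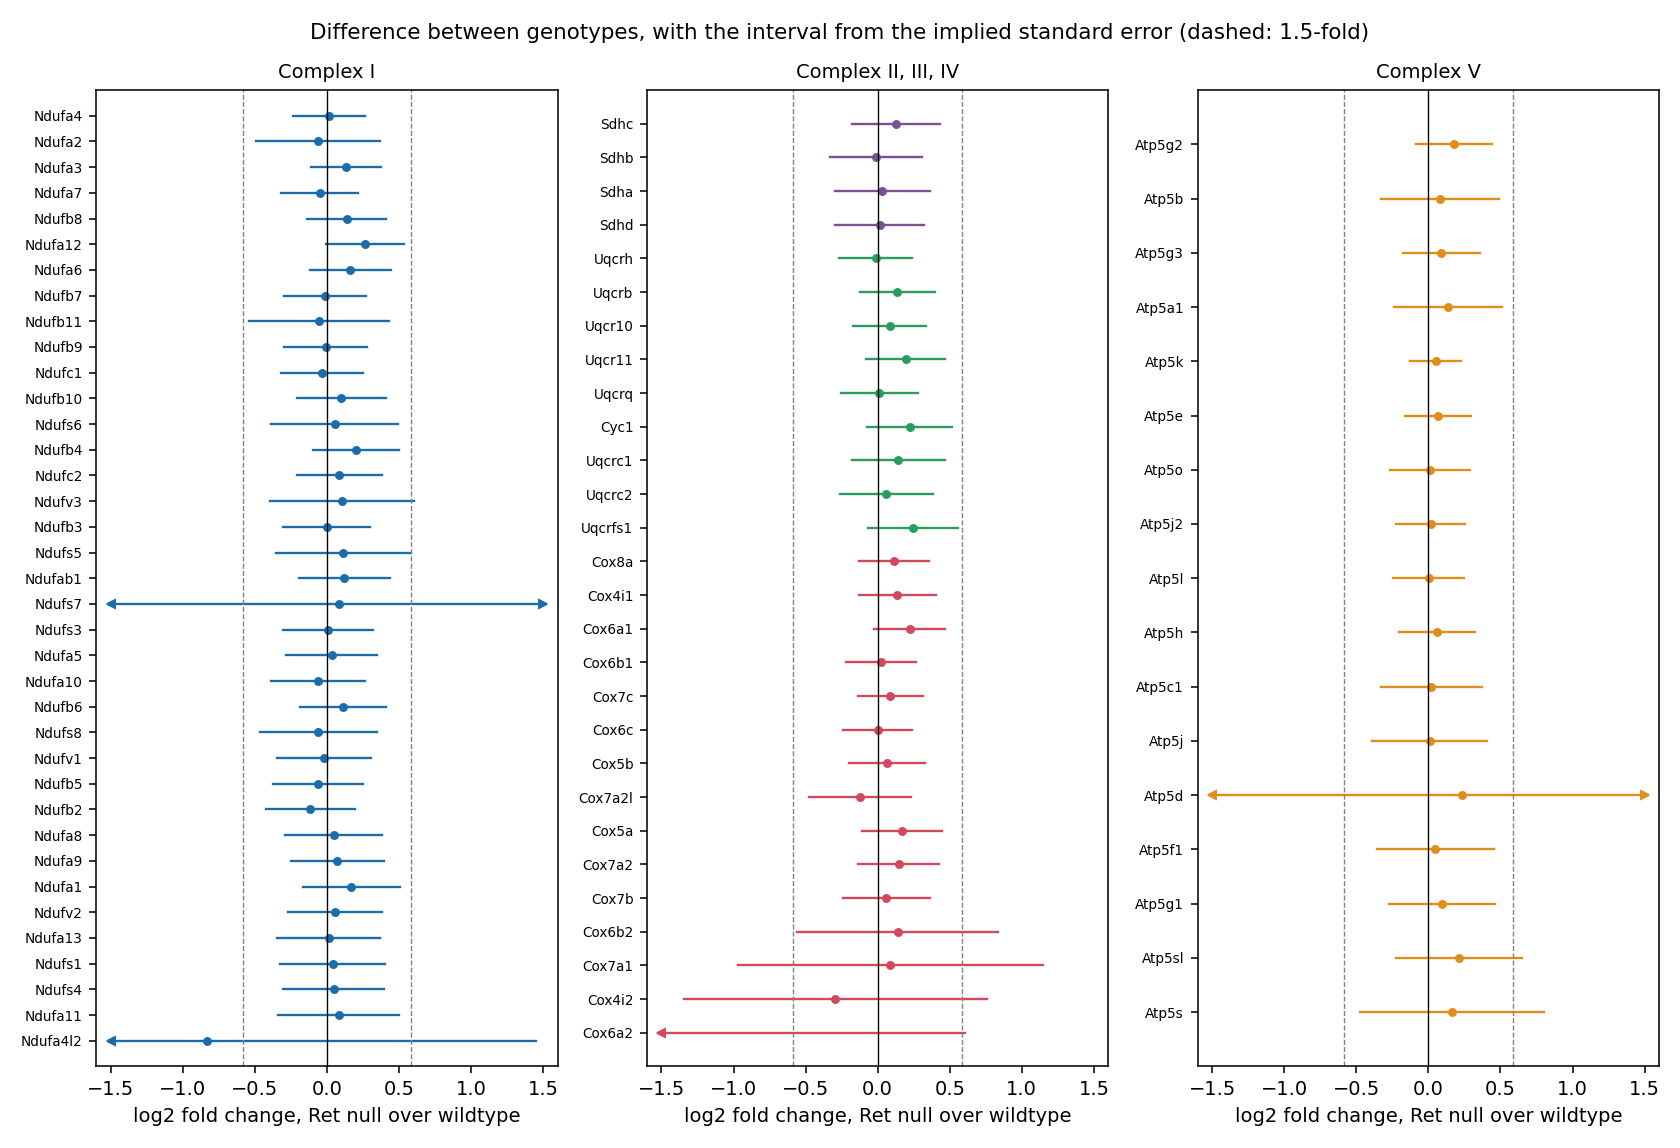
Difference between genotypes for the members shown, as log2 fold change of Ret null over wildtype (x axis), by complex and ordered by mean level from the top. Points are the authors' values, bars are 95% intervals from the implied standard error, dashed lines mark 1.5-fold and arrowheads mark bars or points beyond the axis. No member was called, and the widest bars belong to Ndufs7, Atp5d and minor isoform genes.

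Complex I takes electrons from NADH. Its 38 lines had a median level of 73.6 FPKM in wildtype against 78.5 FPKM in Ret null, with 25 higher and 13 lower in Ret null and 0 called. The median difference was 0.05 and became -0.02 when centred on other lines at 50 FPKM or more. The 3 with the highest mean were Ndufa4 (267 and 270 FPKM in wildtype and Ret null), Ndufa2 (149 and 143 FPKM) and Ndufa3 (138 and 151 FPKM), and in each the genotypes differed by less than 1.2-fold. The 7 core subunits, which carry the flavin and iron-sulfur clusters, summed to 474 FPKM in wildtype against 482 FPKM in Ret null. Among them Ndufv1, which binds NADH, was at 67.2 and 66.3 FPKM, and Ndufs1 at 35.2 and 36.1 FPKM.

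The largest upward difference in complex I was that of the accessory subunit Ndufa12, with 118 FPKM in wildtype against 142 FPKM in Ret null. Its log2 fold change of 0.26 ± 0.14 had p = 0.0215 and q = 0.117 in the authors' deposited table and was not called. Its interval ran from -0.01 to 0.53. It includes 0 although the p is under 0.05, because the authors' p is smaller than a normal reading of their own statistic gives. Reads of Ndufa12 may also be shared with a pseudogene, as its symbol is 1 of 10 among the members with a listed pseudogene copy.

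Complex II oxidizes succinate and is the sole complex encoded wholly in the nucleus. Sdha, the flavoprotein, was at 81.9 FPKM in wildtype against 83.8 FPKM in Ret null. Sdhb, the iron-sulfur subunit whose NRF1 letters are printed above, was at 88.4 and 87.5 FPKM. The membrane anchors Sdhc and Sdhd were at 90.2 and 98.6 FPKM and at 82.3 and 83.0 FPKM. All 4 subunits thus lay within a narrow band in both genotypes, and none was called. Sdhc had the largest upward difference, 0.13 ± 0.16 on the log2 scale, and Sdhb the one downward difference, -0.01 ± 0.16.

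Complex III had the largest median difference of the complexes, 0.13 over 9 genes, with 8 higher and 1 lower in Ret null, 0 called and 6 above the median of other lines at 50 FPKM or more. Centred on those lines its median was 0.07. Its summed level was 1138 FPKM in wildtype against 1219 FPKM in Ret null, a ratio of 1.07. The highest means were those of the small accessory subunits Uqcrh (263 and 261 FPKM), Uqcrb (155 and 170 FPKM) and Uqcr10 (157 and 167 FPKM). Both nuclear-encoded catalytic subunits were among the 4 members with an unadjusted p under 0.05. Uqcrfs1, the Rieske iron-sulfur protein, was at 64.4 FPKM in wildtype against 76.3 FPKM in Ret null, a log2 fold change of 0.25 ± 0.16 with q = 0.12 in the authors' deposited table. Cyc1, cytochrome c1, was at 104 and 121 FPKM, 0.22 ± 0.15 with q = 0.156 in the authors' deposited table. Neither passed the threshold. Uqcrh was the one gene of complex III with a lower value in Ret null, by 0.01 ± 0.13 on the log2 scale, and 2 pseudogene symbols are listed for it.

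Complex IV reduces oxygen. Its members with the highest mean of both genotypes were Cox8a, with 393 FPKM in wildtype against 426 FPKM in Ret null, Cox4i1 with 378 and 415 FPKM, and Cox6a1 with 267 and 311 FPKM. All were higher in Ret null and none was called. Cox6a1 came nearest, with a log2 fold change of 0.22 ± 0.13 and p = 0.0341 and q = 0.162 in the authors' deposited table. Over the 15 lines 11 were higher and 4 lower, with a median difference of 0.07 that shrank to 0.00 when centred on other lines at 50 FPKM or more. The 15 lines include isoform genes of very low level. Over complex IV members at 5 FPKM or more the median difference before centring was 0.10. The supercomplex factor Cox7a2l was at 179 FPKM in wildtype against 164 FPKM in Ret null, -0.12 ± 0.18 on the log2 scale.

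Several subunits of complex IV exist as a widely expressed form and a form restricted to heart and skeletal muscle, lung, testis or vessel cells, and here the widely expressed form dominated in both genotypes. The muscle form Cox6a2 was at 1.53 FPKM in wildtype against 0.124 FPKM in Ret null, a log2 fold change of -3.62 ± 2.16 with q = 0.588 in the authors' deposited table. Its share of the sum with Cox6a1 was 0.569% in wildtype and 0.04% in Ret null. The difference is large as a ratio, rests on very low values and was not called, and with 1 FPKM added to both values it was -1.17. A second muscle form, Cox7a1, was at 2.42 FPKM in wildtype against 2.57 FPKM in Ret null, a log2 fold change of 0.09 ± 0.54. That was 2.22% and 2.13% of its sum with Cox7a2 (107 and 118 FPKM). The third, Cox8b, had no test. Of the muscle forms, Cox6a2 was thus lower and Cox7a1 near level in Ret null, and whether their differences differ was not tested.

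Striated muscle markers, on lists chosen with earlier results of these data known, differed in the same comparison. All 9 tested of 11 somite and skeletal muscle markers, which include the somite factors Pax1 and Uncx, were lower in Ret null, and their summed level was 98.8 FPKM in wildtype against 6.08 FPKM in Ret null, with Myog at 17.0 and 1.07 FPKM and Myl1 at 21.5 and 1.09 FPKM. Of 7 tested of 10 heart markers 5 were called lower, with sums of 131 and 19.4 FPKM and Actc1 at 69.4 and 7.17 FPKM. The other 2 were not called. Myl7 of these was at 4.43 FPKM in wildtype against 2.96 FPKM in Ret null, with q = 0.366 in the authors' deposited table. By value 6 of the 7 heart markers were lower and 1 was higher in Ret null. Myh6, Nppa and Nppb of the heart list and Ckm and Myf5 of the somite and skeletal muscle list were too low to be tested. The part of heart and of skeletal muscle in the values of Cox6a2 was not tested. Liver, gut epithelium and gut mesenchyme marker sums were higher in Ret null (23.9 and 319 FPKM, 147 and 326 FPKM, 349 and 849 FPKM), and enteric neural crest and neuron marker sums were lower (151 and 62.7 FPKM). Red cell marker sums were 6260 and 3834 FPKM, but the 7 tested genes were mixed, with 2 called higher and 3 called lower in Ret null. Against these shifts the sum of the respiratory genes differed by a ratio of 1.05, and the part of any one tissue in it was not tested.

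The other restricted forms were also minor. Cox6b2, the testis form, was at 21.0 FPKM in wildtype against 23.1 FPKM in Ret null, 6.94% and 7.48% of its sum with Cox6b1 (281 and 285 FPKM). Cox4i2, the lung form, was at 2.57 and 2.10 FPKM, 0.676% and 0.504% of its sum with Cox4i1. Ndufa4l2, known as a hypoxia-responsive gene, was at 7.17 and 4.02 FPKM, -0.83 ± 1.17 with q = 0.586 in the authors' deposited table, and 2.61% and 1.47% of its sum with Ndufa4. None was called, and the error of Ndufa4l2 exceeds its difference.

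**Figure D3:**
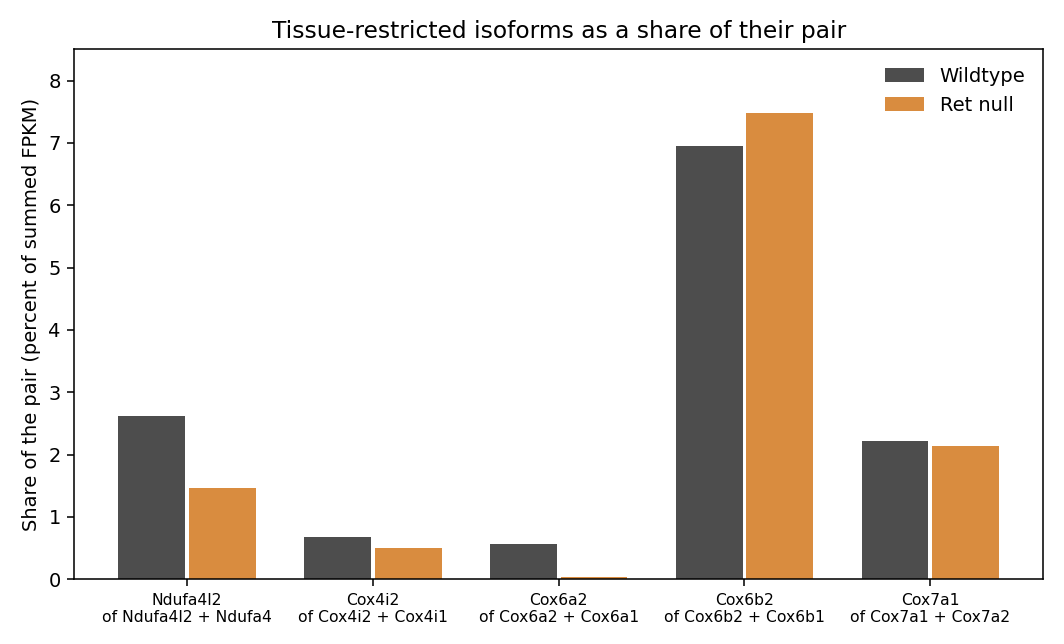
Level of each tissue-restricted isoform gene as a percent of the FPKM summed with its widely expressed partner (y axis, from 0), in wildtype and Ret null gut, with 1 value per genotype and no error bars. Cox6b2 has the tallest bars, 6.94% and 7.48%, and Cox6a2 goes from 0.569% to 0.04%.

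Complex V makes ATP and held the most abundant transcripts of the group. Atp5b, the catalytic beta subunit, was at 529 FPKM in wildtype against 559 FPKM in Ret null, and Atp5a1, the alpha subunit, at 362 and 399 FPKM. All 17 lines were higher in Ret null and none was called. Relative to other well-expressed genes the sign was not uniform, as 9 of 17 lay above the median of other lines at 50 FPKM or more. These 9 include Atp5s and Atp5sl, which are under 50 FPKM and are not subunits of the enzyme. The median difference of the 17 lines was 0.07 and became 0.01 when centred on other lines at 50 FPKM or more. The c ring, whose rotation is driven by protons, is encoded by 3 genes for the same mature protein. Atp5g2 gave 526 and 595 FPKM, Atp5g3 404 and 430 FPKM, and Atp5g1 118 and 126 FPKM. Their shares of the c ring sum were close between genotypes, with Atp5g2 at 50.2% in wildtype and 51.7% in Ret null, Atp5g3 at 38.5% and 37.4%, and Atp5g1 at 11.27% and 10.95%. The smallest difference in the complex was that of Atp5l, with 243 FPKM in both genotypes, for which 2 pseudogene symbols are listed.

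The largest upward difference in complex V was that of Atp5d, the delta subunit of the central stalk, with 138 FPKM in wildtype against 163 FPKM in Ret null. Its implied standard error was 1.95 on the log2 scale, around a log2 fold change of 0.23. Ndufs7 of complex I, at 72.4 and 76.9 FPKM, had an implied standard error of 3.10. Both belong to a merged locus on chromosome 10, from 79697305 to 80369637, that 47 lines of the table share, and the intervals of both reach beyond 1.5-fold on either side.

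The X-linked members were set against the Xist difference above. Ndufa1 was at 53.0 FPKM in wildtype against 59.5 FPKM in Ret null, Ndufb11 at 117 and 113 FPKM, and Cox7b at 83.5 and 87.0 FPKM. None of the 3 was called. Of 473 tested lines on chromosome X, 25 were called higher and 59 called lower in Ret null. Of all tested lines 14.6% were called in either direction. With only 3 genes, 0 calls cannot be set apart from these shares.

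Among genes that work with the complexes, the mobile carrier of electrons was called. Cycs, cytochrome c, which carries electrons from complex III to complex IV and is also released from mitochondria in apoptosis, rose from 49.6 FPKM in wildtype to 79.0 FPKM in Ret null. The log2 fold change of 0.67 ± 0.17 had q = 0.000775 in the authors' deposited table, and an adjusted p of 0.00368 from the statistic as a normal deviate. It was the 1 called gene of 12 tested for mobile carriers and ubiquinone synthesis, a list chosen with earlier results of these data known. The authors called 14.6% of all tested lines, so 1 call of 12 does not set the list apart. By contrast Cyc1 and Cox5a (124 and 139 FPKM), subunits of the complexes that cytochrome c links, were not called. Whether the difference in Cycs exceeds theirs was not tested.

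The remaining mitochondrial lists showed few calls. The authors called 14.6% of all tested lines and 7.17% of those at 50 FPKM or more. In the shorter lists a count of 0 therefore says little. None of 13 tested complex I assembly factors was called by the authors' test, with 0 at an unadjusted p under 0.05, and the most abundant, Ndufaf2, was at 45.9 FPKM in wildtype against 46.4 FPKM in Ret null. The 7 Ndufaf genes among them summed to 94.2 and 96.7 FPKM. Of 26 tested assembly factors of complexes II to V 0 were called and 1, Cox18, had an unadjusted p under 0.05. Coa3, the most abundant, was at 54.8 and 61.9 FPKM. Of 14 regulators none was called, with 0 at an unadjusted p under 0.05, and Nrf1 was at 22.4 and 22.9 FPKM, Gabpa at 21.6 and 20.0 FPKM, Yy1 at 34.9 and 39.0 FPKM, Tfam at 18.1 and 19.7 FPKM and the coactivator Ppargc1a at 2.11 and 1.91 FPKM. For pyruvate dehydrogenase and the citric acid cycle 0 of 16 genes were called, with 2 higher at an unadjusted p under 0.05, and Mdh2, the most abundant, stood at 165 and 174 FPKM. Of 75 mitochondrial ribosomal protein genes 0 were called, with 2 higher at an unadjusted p under 0.05. Of 22 import genes 1 was called, Tomm40, the channel of the outer membrane, which rose from 39.38 to 49.98 FPKM (log2 fold change 0.34 ± 0.19, q = 0.016 in the authors' deposited table), a call lost when the statistic was read as a normal deviate (adjusted p = 0.568). In the other direction Tomm34, an import gene at 22.3 FPKM in wildtype against 17.9 FPKM in Ret null, differed by -0.32 ± 0.19 on the log2 scale and was not called (unadjusted p = 0.00765 and q = 0.0521, both from the authors' deposited table). Read as a normal deviate, the statistic called 0 genes in each list of this paragraph. The medians of these lists ran from -0.01 for the complex I assembly factors to 0.08 for the citric acid cycle, beside 0.06 for the respiratory chain members.

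**Figure D4:**
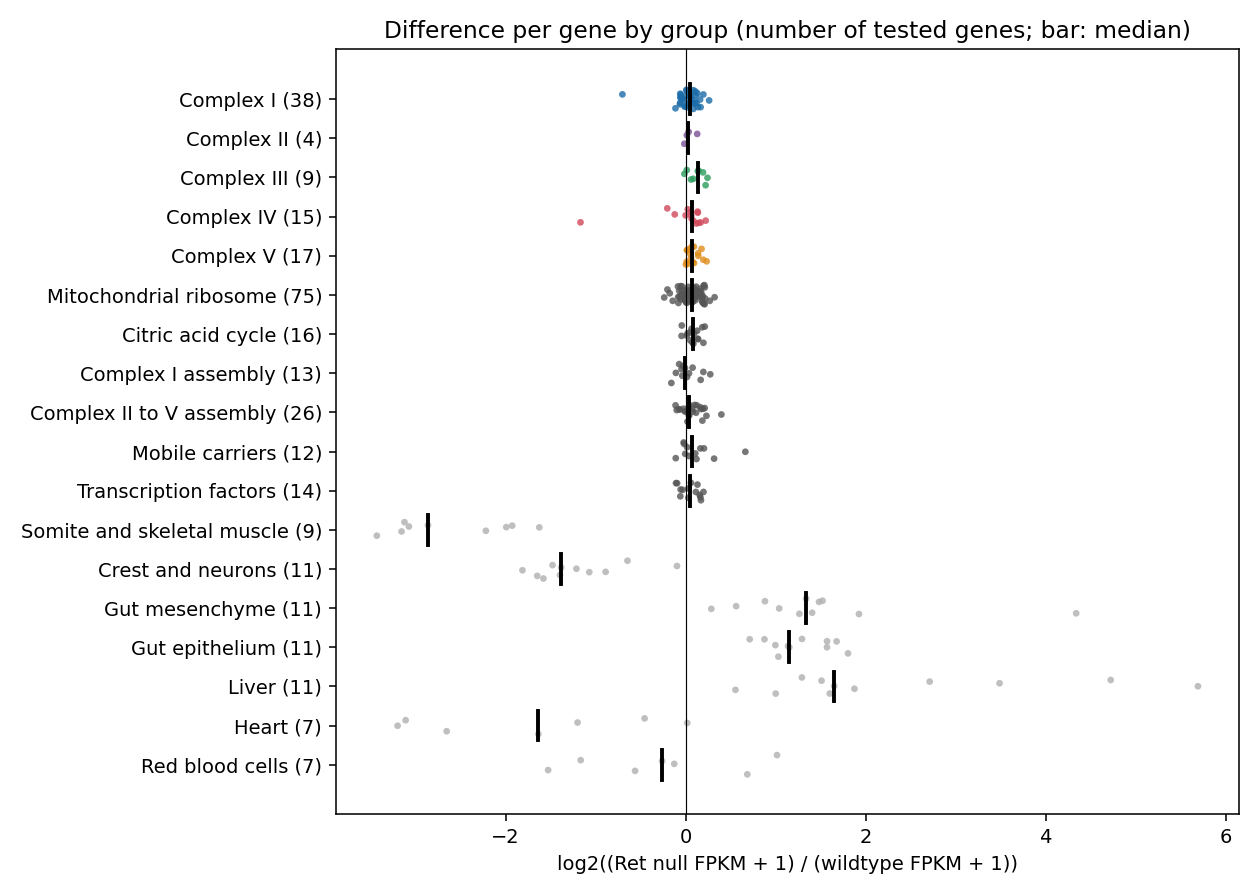
Difference per gene on the log2((Ret null FPKM + 1) / (wildtype FPKM + 1)) scale (x axis) for the 5 complexes, related mitochondrial lists and marker lists, with the number of tested genes in parentheses and a bar at the median. The complexes and mitochondrial lists sit near 0, with medians from -0.01 to 0.13, and the tissue marker lists spread to both sides, from -2.86 for somite and skeletal muscle to 1.65 for liver.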

How the data were processed

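Per the labels' protocols, polyadenylated RNA from dissected guts was made into TruSeq libraries. The submitters' processing notes name Picard, TopHat2, Cufflinks, Cuffdiff and mm10, without versions. Their settings and the gene annotation were not given in the sources. The authors deposited 1 gene table with an FPKM value per genotype, a test statistic (a score), a p-value and a q-value, per the file headers. Its columns name genotypes by the letters w and h, taken from these letters as wildtype and as homozygous for the null allele. Of 23234 lines 1 held 2 records run together and was left out. The authors' status column marks 13430 as tested. Depth is unknown, since the table holds no counts, so no counting intervals are given. Of the tested lines 8 have no statistic.

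Log2 fold changes were computed anew from FPKM, with 1 FPKM added where stated. No test of replicates was possible, and calls rest on the authors' q under 0.05. Adjusting the deposited p-values by Benjamini-Hochberg gave the authors' q-values to within 5.94e-05. Normal p-values from the statistic were adjusted in the same way, by a routine tested on simulated data. Starts in the file count from 0 and were raised by 1. All 83 members are in the RefSeq table, 3 of them under another symbol. The results of 1 complex I gene are left out of the text and plots by name, though it enters all counts. Members and lists were chosen with earlier results of these data known. Named were Ret, called members, the 3 highest and the largest differences per complex, isoform pairs and X-linked members. For most mitochondrial lists the called genes or else the most abundant were named. Of the marker lists, only those of somite and skeletal muscle and of heart had genes named. Others were named for their role or after their values were seen. Python 3.11.15, pandas 2.3.3, numpy 2.4.6, scipy 1.17.1 and matplotlib 3.10.9 were used.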

Additional observations from a re-analysis of the deposited data

How the results depend on the processing

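The count of 0 called members, in each complex and direction, held at q under 0.01 and 0.1, with the statistic read as a normal deviate, with lines under 1 or 5 FPKM left out and with a 1.5-fold minimum. Only the unadjusted p under 0.05, added after seeing the data, gave another count, 4 higher. The median difference of the members ran from 0.0498 to 0.0591 with 0, 0.1 or 5 FPKM added, without low members or the muscle isoforms, with named subunits only and centred on all tested lines. Centred on other lines at 50 FPKM or more, an alternative added after seeing the data, it was -0.0039, and those of complexes I, II and III were -0.02, -0.04 and 0.07. Without Atp5d and Ndufs7, also added later, it was 0.058. Cox6a2 moved from -1.17 to -3.62 without an added FPKM. No paired analysis was possible because the table has 1 value per genotype, and for the same reason leaving out a replicate was not run. Differences of genes at a few FPKM, such as Cox6a2 and Cox4i2, are the least certain.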
